A study of Homo sapiens with 6 samples.

Results

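BCL2 family RNA was measured in LoVo cells, an established human line from a colorectal adenocarcinoma, with and without DCC-2036, a tyrosine kinase inhibitor also called rebastinib. The 10 genes described here are BCL2, BCL2L1, MCL1, BAX, BAK1, BCL2L11, BBC3, PMAIP1, BID and BIK, chosen by symbol from the deposited table. They are 10 of 19223 symbols, and they hold 53 of 45006 transcripts. The Control cells received vehicle and the DCC-2036 cells received 2.5 μM of the inhibitor, with 3 libraries in each group. The labels give DMEM with serum for both groups, whereas the methods of the study name another medium for LoVo cells, and the labels give no genetic change for either group. The labels give 48 h of treatment, whereas the legend of the study gives a shorter time for the same dose. The labels do not say whether the 3 libraries of a group came from separate cultures, so p-values measure the spread between these libraries, which may be technical. As RNA was pooled over each culture, fewer cells of a type and less RNA per cell cannot be told apart.

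BCL2 family proteins decide whether the outer mitochondrial membrane stays closed during apoptosis. The anti-apoptotic proteins (BCL2, BCL-XL from BCL2L1, and MCL1) hold the effectors BAX and BAK in check. BH3-only proteins (BIM from BCL2L11, PUMA from BBC3, NOXA from PMAIP1, BID and BIK) bind the anti-apoptotic proteins through a short helix named BH3, and some also activate BAX and BAK directly. Once BAX and BAK form pores, cytochrome c leaves the mitochondria and the apoptosome assembles. In colorectal cancer cells BCL-XL and MCL1 are well known survival proteins, and BIM is known to rise when growth factor signalling is blocked. The table holds RNA values alone, and the abundance, phosphorylation and binding of the proteins were not measured in it.

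Values are the deposited depth-adjusted signal per transcript, which is not divided by length. Each gene is first given by its leading transcript, the one whose mean across all 6 libraries is highest. Differences are log2 fold changes of DCC-2036 against Control on the log2(value + 1) scale, tested with limma (two-sided, Benjamini-Hochberg) and called at an adjusted p under 0.01. A gene was tested if it reached 10 in at least 3 libraries. All 10 members passed that filter, among 12725 genes. Column totals were 0.911 to 0.948 of their mean in the Control libraries and 1.01 to 1.12 of it in the DCC-2036 libraries. They are sums of adjusted values and not read depths, so the number of reads behind a value is unknown. Markers of the labelled cell type were present in part: KRT8, KRT18, KRT19, EPCAM and CDH1 were high and the intestinal factor CDX2 measured 213 to 365, whereas the intestinal markers CDH17, VIL1 and CEACAM5 were at or near 0 in all libraries. The summed level of the 10 epithelial markers was 104480 to 115000 in Control and 148340 to 188450 with DCC-2036. KRT8 had the highest values (mean 59932 and 108240) and was called higher (log2 fold change 0.84, adjusted p = 0.0029, limma). CDH1 was called higher too (1.10, adjusted p = 0.00035), and KRT20 fell (mean 53.1 and 23.4, adjusted p = 0.0043). Summed leukocyte markers were 226 to 265 and 210 to 286, nearly all from CD68, and PTPRC was listed at 0 in every library. Summed stromal markers were 370 to 440 in Control and 452 to 553 with DCC-2036, mostly COL1A1, and the 4 endothelial markers summed to no more than 41.3 in any library. The part of these shifts in the results below was not tested.

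Of the 10 members, 3 fell with DCC-2036 (BCL2, BAX and BAK1), and 0 were called higher. Over all tested genes 22.7% were called lower and 19.2% were called higher, so a count of 3 lower among 10 is near the background. At an unadjusted p under 0.05, 5 members passed, of which 1 was higher (BCL2L11), where 66.6% of all tested genes passed and 30.5% passed as higher. The Control and DCC-2036 libraries did not overlap in 6 members, 4 of them lower (BCL2, MCL1, BAX, BAK1) and 2 higher (BCL2L1, BCL2L11). The same held for 71.1% of the 12725 genes. The members' median log2 fold change was -0.13, beside -0.09 over all tested genes. By role, both effectors fell, 1 of 3 anti-apoptotic genes fell, and 0 of 5 BH3-only genes were called. With each column scaled to the same total, the median over all genes moved to -0.29, the calls split into 1669 higher and 3440 lower in place of 2442 and 2887, and MCL1 was called lower too. The balance went the other way with median-of-ratios scaling (2704 higher, 2627 lower) and with upper quartile scaling (2952 higher, 2466 lower), where the same 3 members were called.

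**Figure D1:**
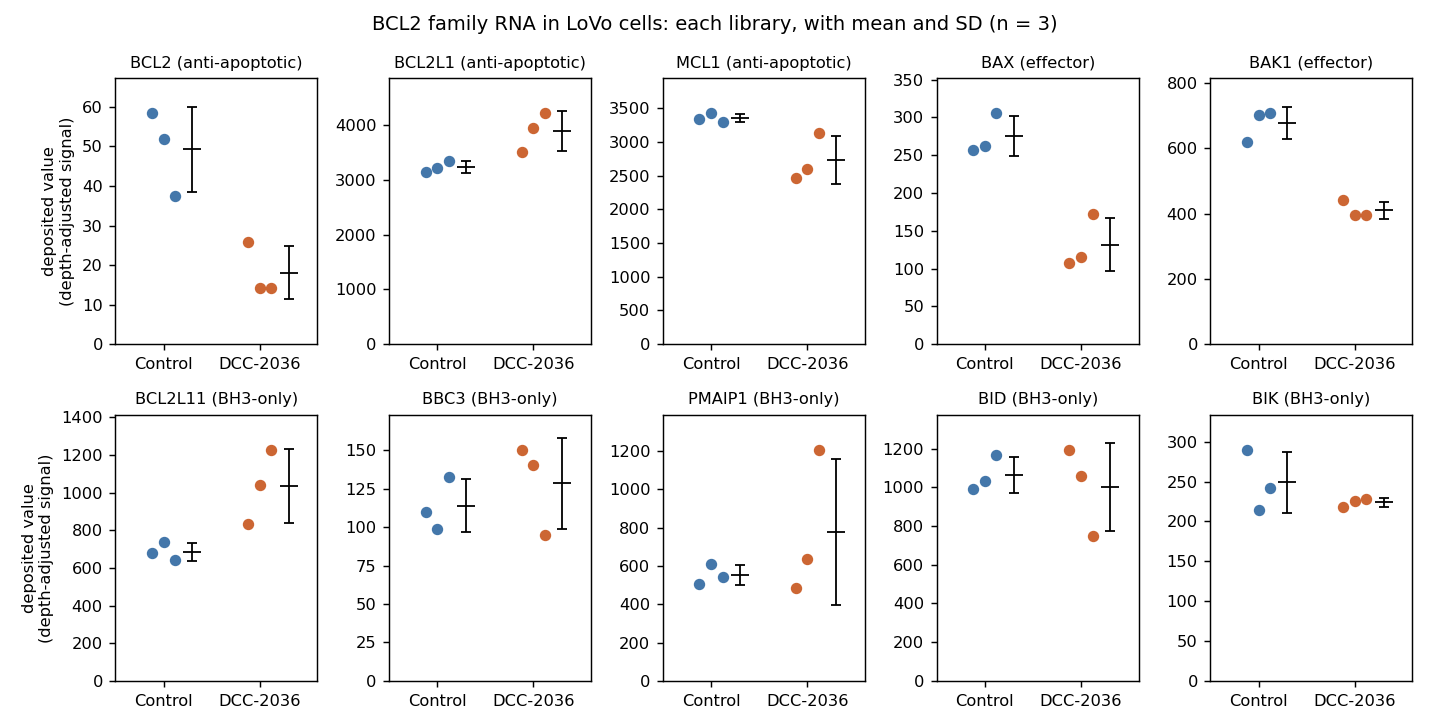
Deposited signal (vertical axes, depth-adjusted, starting at 0) of the 10 members in each of the 3 Control and 3 DCC-2036 libraries, with the mean and SD beside the points. BCL2, MCL1, BAX and BAK1 lie lower in every DCC-2036 library, BCL2L1 and BCL2L11 lie higher in every one, and the other 4 members overlap.

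BCL2L11, the gene of BIM, had the highest fold change among the members, and its transcripts did not move alike. The gene lies on the plus strand at chr2:111119378-111168447 (GRCh38, GENCODE 29). Its transcripts differ in whether they hold the exon for the BH3 helix and in their last exon. Of 18 deposited transcripts, 16 carry values of 551 to 1227, and the other 2, NM_207002.3 and NM_001204113.1, lack the BH3 exon and end in exons of their own. By the matched exon models, 5 of the 16 lack the BH3 exon as well, with log2 fold changes of 0.50 to 0.56. Its absence is thus not particular to the pair by these models. Some transcripts share a matched model, among them NM_138626.3, NM_001204111.1 and NM_138627.3 of these 5. The model of NM_001204112.1 holds only 243 bases. Counts by model are thus not over separate structures. The sequences below show an exon that 11 of the 16 hold by the matched models and an end that belongs to 1 of the pair. The first is the BH3 exon at chr2:111150044-111150147, with the bases that code for the core of the BH3 helix in capitals, and the second is the coding part of the last exon of NM_207002.3 at chr2:111128627-111128748. Both are read 5′ to 3′ on the plus strand of GRCh38.
BCL2L11 BH3 exon: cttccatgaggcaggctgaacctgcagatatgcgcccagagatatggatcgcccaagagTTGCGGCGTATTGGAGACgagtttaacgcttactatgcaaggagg
NM_207002.3 last exon, coding part: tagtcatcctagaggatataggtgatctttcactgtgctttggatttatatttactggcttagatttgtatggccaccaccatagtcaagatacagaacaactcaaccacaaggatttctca

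The leading BCL2L11 transcript, NM_138622.3, measured 678, 738 and 644 in Control and 834, 1042 and 1227 with DCC-2036. Each DCC-2036 library was above each Control library. The mean rose from 687 ± 47.4 to 1034 ± 197 (SD, n = 3 each), a ratio of 1.51, but the log2 fold change of 0.57 (SE 0.16, 95% interval 0.19 to 0.96) missed the limit at an adjusted p of 0.0203. Without DCC-2036 replicate 1, the lowest of its group, the log2 fold change was 0.72 with an adjusted p of 0.0038, which is past the limit, as was the adjusted p of 0.0084 with limma's trend option. In the other direction, equal totals gave 0.38 (adjusted p = 0.0506), leaving out DCC-2036 replicate 3 gave 0.44 (0.0272) and leaving out Control replicate 3 gave 0.53 (0.0698). It and the transcripts with like values were spread narrowly, and over these 16 the log2 fold changes ran from 0.50 to 0.62, with 0 called. Some of the 16 share a matched model, and how reads in shared exons were assigned is not given. They may thus not be 16 separate measurements.

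The short pair gave larger log2 fold changes than the other 16. NM_207002.3 measured 41.3, 44.8 and 43.3 in Control and 109, 140 and 191 with DCC-2036. It rose from 43.1 ± 1.75 to 147 ± 41.6 (SD, n = 3 each), a log2 fold change of 1.71 (SE 0.20, 95% interval 1.21 to 2.20, adjusted p = 0.0009 with each transcript as a row in limma). NM_001204113.1 measured 42.3, 44.8 and 47.0 in Control and 110, 142 and 196 with DCC-2036, a log2 fold change of 1.68 (SE 0.21, adjusted p = 0.0011). These were the 2 member transcripts of 53 called higher, in a fit where 19.7% of 32323 transcripts were called higher. Both calls held in each of the 10 alternatives run for them, with log2 fold changes from 1.47 to 1.90.

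NM_207002.3 was also set as a percentage of NM_138622.3 in the same library, which a single scaling factor per library would not change. It made up 6.10, 6.08 and 6.71 in Control and 13.1, 13.4 and 15.6 with DCC-2036. NM_001204113.1 made up 6.24, 6.07 and 7.29 in Control and 13.2, 13.6 and 16.0 with DCC-2036. The groups did not overlap for either, and the exact permutation p was 0.1 for each (two-sided), the smallest that 3 against 3 libraries can give. The pair was not among the planned results. Its ratios rest on the same libraries as its fold changes, so they are not a separate test. The pair are nearly the same measurement, since their values differed by 0.0525 to 4.66 units within a library.

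Of the 720 bases of NM_207002.3, 502 (69.7%) are shared with other BCL2L11 transcripts and 218 are its own, and of the 947 bases of NM_001204113.1, 535 (56.5%) are shared. By contrast, 4313 of the 5224 bases of NM_138622.3 (82.6%) lie in its last exon, which the pair lacks. The absence of that exon is not particular to the pair by the matched models, since 14 of the other 16 hold some of it, while NM_001204110.1 and NM_001204112.1, matched to models of only 249 and 243 bases, hold 0 and gave log2 fold changes of 0.53 and 0.56, like the transcripts with the exon. NM_138625.3, whose model holds 99 bases of it, gave 0.53. The sources used here do not say how reads in shared exons were assigned, so what the pair's values count, its own exons or those it shares, was not tested. An antisense noncoding gene, MIR4435-2HG, covers the locus and shares 727 exon bases with BCL2L11, all in that last exon and 0 in the short pair. The Nextera XT kit does not mark strand, so reads from either gene would count there, and the share of MIR4435-2HG in the values of transcripts with that exon was not tested.

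**Figure D2:**
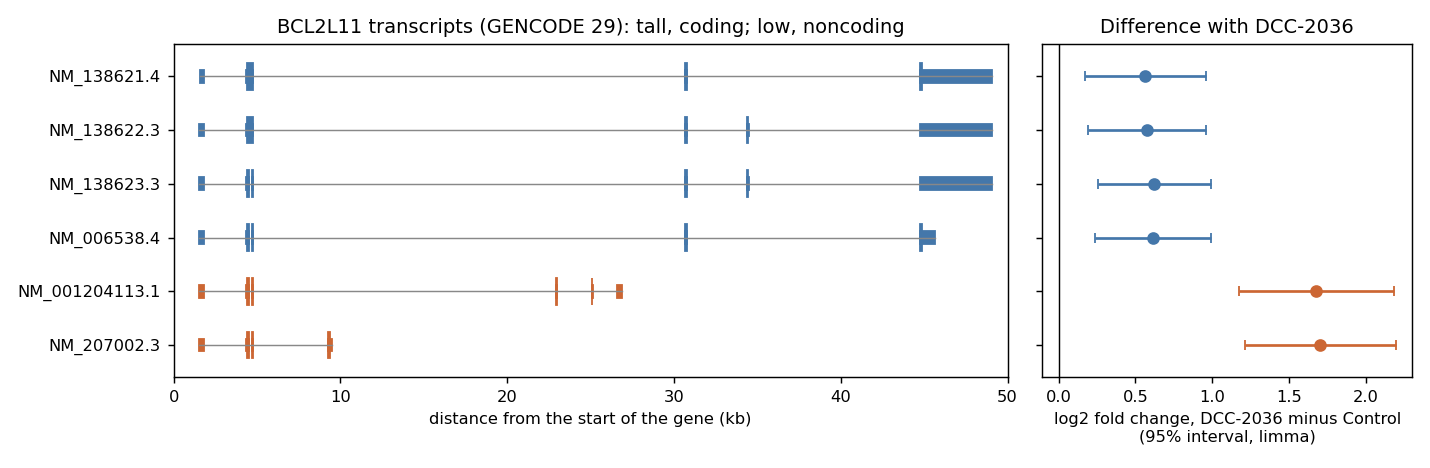
Left, exons of 4 long (blue) and both short (orange) BCL2L11 transcripts by distance from the start of the gene (kb), tall for coding and low for noncoding. Right, log2 fold change of each with its 95% interval (limma), near 0.6 for the long transcripts and near 1.7 for the short pair.

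Among the anti-apoptotic genes, BCL2 fell, whereas BCL2L1 was higher and MCL1 lower in every DCC-2036 library without passing the limit. BCL2 (chr18:63123346-63320128, minus strand) measured 58.4, 51.9 and 37.5 in Control and 25.8, 14.2 and 14.3 with DCC-2036. These are the lowest values of any member, and the treated mean was 36.8% of the Control mean. The log2 fold change was -1.43 (SE 0.27, 95% interval -2.09 to -0.77, adjusted p = 0.0050). The call was lost without Control replicate 1 (-1.29, adjusted p = 0.0210), without Control replicate 2 (-1.38, 0.0201) and without DCC-2036 replicate 2 (-1.29, 0.0194). A second transcript, NM_000657.2, which lacks the last coding exon of the long form and with it the membrane anchor, overlapped between the groups. Its values were 37.8, 30.0 and 10.7 in Control and 23.8, 21.6 and 9.86 with DCC-2036 (log2 fold change -0.40, adjusted p = 0.516). Summing both transcripts gave -1.03 with an adjusted p of 0.0426, which ends the call.

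BCL2L1, the gene of BCL-XL (chr20:31664452-31723989, minus strand), was the most abundant member per kilobase in both groups. NM_138578.2, which codes for BCL-XL, measured 3135, 3214 and 3344 in Control and 3499, 3938 and 4217 with DCC-2036. All 3 treated libraries lay above the Control range, by a log2 fold change of 0.26 (SE 0.11, 95% interval -0.0013 to 0.53, adjusted p = 0.0761). When each column was given the same total, it was 0.06 (adjusted p = 0.549). It was larger with median-of-ratios scaling (0.34, adjusted p = 0.0468), with upper quartile scaling (0.37, 0.0269) and without DCC-2036 replicate 1 (0.34, 0.0279). These adjusted p stayed over the limit. NM_001191.3, which codes for the short form BCL-XS, gave 2556, 2570 and 2713 in Control and 2890, 3218 and 3430 with DCC-2036. Over all 8 transcripts the Control means ran from 2613 to 3231 and the log2 fold changes only from 0.26 to 0.28. How reads in shared exons were assigned is not given. Whether the NM_001191.3 values count BCL-XS itself or exons shared with BCL-XL was not tested. The antisense gene ABALON shares 1224 (42.8%) of the exon bases of BCL2L1, and its part in these values was not tested.

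MCL1, whose protein turns over quickly (chr1:150574551-150579738, minus strand), measured 3341, 3425 and 3299 in Control and 2465, 2595 and 3134 with DCC-2036. The groups did not overlap, but DCC-2036 replicate 3 lay close to the Control range. The log2 fold change was -0.30 (SE 0.12, 95% interval -0.60 to -0.01, adjusted p = 0.0663). Without DCC-2036 replicate 3 it was -0.41 with an adjusted p of 0.0090, and with equal totals -0.50 with an adjusted p of 0.0066, both past the limit. It was smaller with median-of-ratios scaling (-0.22, adjusted p = 0.189), with upper quartile scaling (-0.19, 0.228) and without DCC-2036 replicate 1 (-0.23, 0.131). The transcripts NM_182763.2 (the short form) and NM_001197320.1 gave -0.28 each. Whether their values count these forms or exons shared with the leading transcript was not tested.

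Both effectors fell. BAX (chr19:48954815-48961798, plus strand) measured 258, 262 and 306 in Control and 107, 116 and 173 with DCC-2036 for NM_001291428.1. The mean fell from 275 ± 26.5 to 132 ± 35.6 (SD, n = 3 each), which is 47.9% of Control. The log2 fold change was -1.08 (SE 0.20, 95% interval -1.56 to -0.61, adjusted p = 0.0041). The call was lost without Control replicate 1 (adjusted p = 0.0149), Control replicate 2 (0.0154), Control replicate 3 (0.0191) or DCC-2036 replicate 2 (0.0180), while the log2 fold change stayed between -1.29 and -0.95 over all libraries left out in turn. All 8 BAX transcripts were lower in every DCC-2036 library, and 5 were called, in a fit where 22.4% of transcripts were called lower. By leading transcript, the groups did not overlap in 71.1% of all tested genes. Some of the 8 share a matched exon model, and how reads in shared exons were assigned is not given. The 8 BAX transcripts may thus not be separate measurements. Their log2 fold changes ran from -1.53 for NM_001291430.1 (111, 103 and 130 in Control, 39.4, 35.8 and 41.0 with DCC-2036, adjusted p = 0.0003) to -0.68 for NM_001291431.1 (70.5, 72.9 and 75.5 in Control, 39.5, 40.2 and 58.1 with DCC-2036, adjusted p = 0.0122).

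BAK1 (chr6:33572547-33580293, minus strand) has 1 deposited transcript, NM_001188.3. Its values were 620, 703 and 708 in Control and 441, 396 and 395 with DCC-2036. The treated libraries were tightly grouped and well below Control, with a mean of 60.6% of the Control mean. The log2 fold change was -0.72 (SE 0.11, 95% interval -0.98 to -0.46, adjusted p = 0.0021). Without Control replicate 2 (0.0131), Control replicate 3 (0.0123) or DCC-2036 replicate 2 (0.0122) the adjusted p was over the limit, with log2 fold changes from -0.78 to -0.69 over all libraries left out. Of its exon bases, 91 (4.26%) are shared with GGNBP1 on the opposite strand.

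Of the BH3-only genes beside BCL2L11, none was called, and the libraries of all 4 overlapped. PMAIP1, the gene of NOXA (chr18:59899948-59904306, plus strand), measured 509, 610 and 545 in Control and 485, 637 and 1207 with DCC-2036. A single library, DCC-2036 replicate 3, stood above the rest. The log2 fold change was 0.38 (SE 0.32, 95% interval -0.40 to 1.16, adjusted p = 0.337), and without that library it was 0.0070. BBC3, the gene of PUMA and a p53 target (chr19:47220822-47232766, minus strand), measured 110, 98.9 and 133 in Control and 150, 141 and 94.6 with DCC-2036. The same replicate 3 was here the lowest of all 6 libraries, and the log2 fold change of 0.15 (95% interval -0.35 to 0.66, adjusted p = 0.538) turned to -0.04 with equal totals. The 4 BBC3 transcripts ran from -0.05 to 0.15.

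BID, which caspase 8 cleaves to link death receptors to mitochondria (chr22:17734138-17774770, minus strand), measured 990, 1033 and 1167 in Control and 1193, 1060 and 749 with DCC-2036. Replicate 3 with DCC-2036 was again the lowest, so the treated group spanned the Control group on both sides. The log2 fold change of -0.11 (95% interval -0.57 to 0.35, adjusted p = 0.628) turned to 0.08 without that library, and the 7 transcripts ran from -0.16 to -0.11. BIK, a BH3-only protein of the endoplasmic reticulum (chr22:43110748-43129712, plus strand), measured 290, 215 and 242 in Control and 218, 225 and 229 with DCC-2036. The treated values lay inside the Control range, with a log2 fold change of -0.14 (95% interval -0.46 to 0.18, adjusted p = 0.379).

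**Figure D3:**
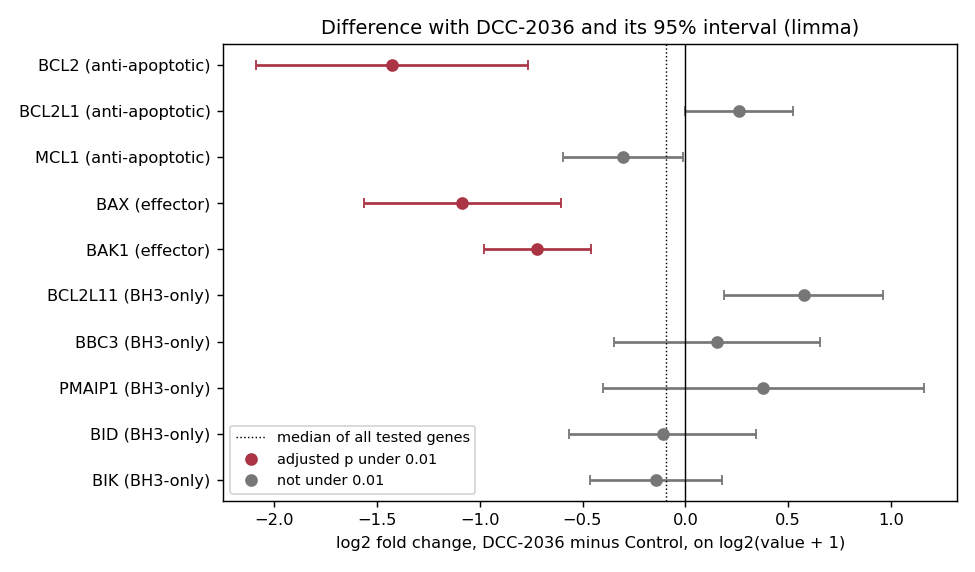
Log2 fold change of each member, DCC-2036 minus Control, with its 95% interval (limma), grouped by role. Red marks an adjusted p under 0.01, which BCL2, BAX and BAK1 reached, and the dotted line is the median of all tested genes at -0.09.

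Levels of different genes were set side by side as signal per kilobase of the exon model matched to each transcript. The models of the leading BAX, BCL2L1 and BCL2L11 transcripts are each matched to another transcript too, so their lengths may not be the transcripts' own. In Control, BCL2L1 was highest at 1238 ± 40.4 per kilobase (SD, n = 3), followed by MCL1 at 853 ± 16.3 and BID at 484 ± 42.0. BAX (347), BAK1 (317), PMAIP1 (285) and BIK (261) came next, and each of these overlapped its neighbour in the order. BCL2L11 (131), BBC3 (62.3) and BCL2 (6.60) closed the order without overlap, so BCL2 itself was the member with the least RNA per kilobase. With DCC-2036, BCL2L1 (1488) and MCL1 (695) again came first without overlap. BID (455) followed, but it overlapped PMAIP1, which moved up to 398 per kilobase with a wide range of 249 to 619. BBC3 was at 70.3, and BCL2 was again last at 2.43 per kilobase. BAX moved down the order to 166 per kilobase, below BAK1, and BCL2L11 moved up to 198, where BIK (235) overlapped BCL2L11, BCL2L11 overlapped BAK1 (192) and BAK1 overlapped BAX.

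Ratios within a library do not change when the library is multiplied by a single factor. How the deposited values were adjusted is not given, so the ratios may still depend on it. BCL2L11 over MCL1, a BH3-only gene over a partner its protein binds, was 0.203, 0.215 and 0.195 in Control and 0.338, 0.402 and 0.392 with DCC-2036. MCL1 over BCL2L1 was 1.07, 1.07 and 0.987 in Control and 0.705, 0.659 and 0.743 with DCC-2036. The groups were apart in both, and the ratio of BCL2L11 to BCL2L1 was closer, at 0.216, 0.230 and 0.193 against 0.238, 0.265 and 0.291. Each gave an exact permutation p of 0.1 (two-sided), which 3 against 3 libraries cannot go below. BAX over BAK1 overlapped, at 0.415, 0.373 and 0.432 in Control and 0.243, 0.293 and 0.437 with DCC-2036 (exact permutation p = 0.4).

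Further members of the family, outside the 10, were mostly lower with DCC-2036. Of 13 such genes, 9 were tested, 7 fell and 0 were called higher, where 22.7% of all tested genes were called lower and 19.2% higher. These 9 had a median log2 fold change of -0.96 beside -0.09 over all tested genes. BCL2L2, the gene of the anti-apoptotic BCL-W, fell from values of 977, 872 and 928 to 394, 368 and 547 (log2 fold change -1.10, adjusted p = 0.0022). BOK, a relative of BAX and BAK, fell from 829, 889 and 960 to 347, 317 and 256 (-1.55, 0.0005). These RNAs went to less than 50% of their Control means, at 47.1% for BCL2L2 and 34.4% for BOK. Among BH3-only genes, BAD, a target of survival kinases, fell from 679, 722 and 863 to 464, 400 and 370 (-0.87, 0.0027), and BMF fell from 30.9, 41.5 and 35.9 to 15.5, 11.9 and 7.32 (-1.61, 0.0027). BCL2L12 (-1.40), BNIP3L (-0.96) and BCL2L13 (-0.92) fell as well. HRK and BNIP3 were not called, and BCL2A1, BCL2L10, BCL2L14 and BCL2L15 were too low to test. The calls of BCL2L2, BAD and BMF were lost in some fits without 1 library (Control replicates 1 and 3 for BCL2L2, Control replicates 2 and 3 and DCC-2036 replicate 2 for the other two), where adjusted p reached 0.0114, 0.0134 and 0.0127 at most.

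**Figure D4:**
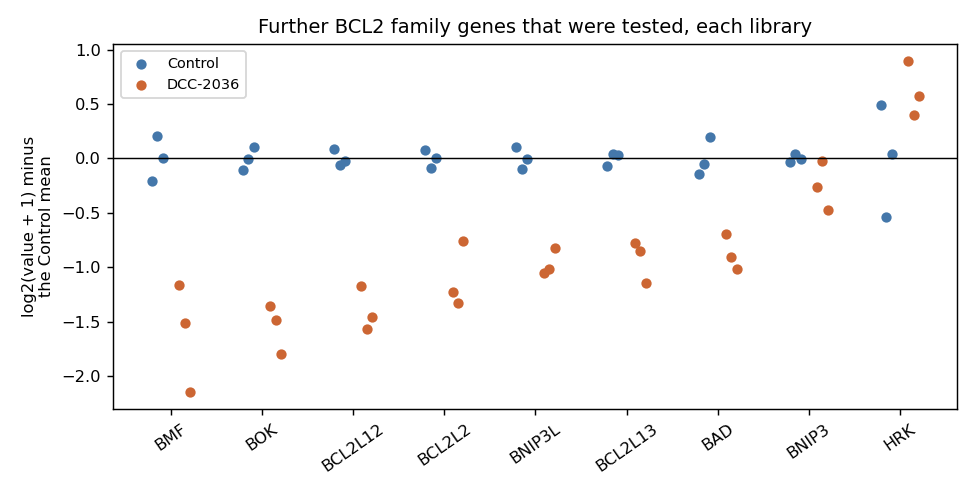
Values of 9 further BCL2 family genes in each library as log2(value + 1) minus the Control mean. In 7 of them (BMF to BAD on the axis) every DCC-2036 library lies below every Control library, and BNIP3 and HRK were not called. The groups did not overlap, in either direction, in 71.1% of all tested genes.

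Of 10 tested genes that act at the mitochondrial membrane or after it opens, 2 were higher, 1 was lower and 7 were not called, where 19.2% of all tested genes were called higher and 22.7% lower. VDAC2, an outer membrane channel known to bind BAK and BAX, measured 5539, 6062 and 6112 in Control and 10863, 13016 and 15118 with DCC-2036 (log2 fold change 1.13, adjusted p = 0.0012). The other call upward, VDAC1, gave 0.65 (adjusted p = 0.0022). HTRA2, a protease released from mitochondria, fell from 608, 696 and 710 to 197, 185 and 235 (-1.71, 0.0003). APAF1, CYCS and CASP9, which form the apoptosome, were not called. The VDAC1 call was lost without Control replicate 1, Control replicate 2 or DCC-2036 replicate 2, where adjusted p was at most 0.0145.

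Of 7 tested genes known to set the turnover of MCL1 protein, 4 were higher, where 19.2% of all tested genes were called higher. GSK3B, a kinase that marks MCL1 for degradation, measured 1658, 1351 and 1521 in Control and 3002, 3077 and 3072 with DCC-2036 (log2 fold change 1.02, adjusted p = 0.0007). MARCHF5, a ubiquitin ligase of the outer mitochondrial membrane, which the table lists under a date-like symbol and which was matched by its RefSeq accession, measured 1105, 1168 and 1203 in Control and 1809, 1806 and 2115 with DCC-2036 (0.72, 0.0022). BTRC, a subunit of a ubiquitin ligase, gave 0.53 (0.0036), and USP9X, which removes ubiquitin from MCL1, gave 0.50 (0.0081). The list thus holds calls for genes that lower MCL1 and for a gene that preserves it. The MARCHF5 call was lost without Control replicate 1, 2 or 3 (adjusted p at most 0.0124). The BTRC call was lost in 6 of 17 alternatives and the USP9X call in 8 of 17, among them equal totals and the removal of any Control library or of DCC-2036 replicate 2, with adjusted p up to 0.0299 and 0.0770.

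Among 9 tested transcription factors known to act on BH3-only genes, 3 were higher and 1 was lower, near the shares of 19.2% and 22.7% over all tested genes. JUN measured 245, 202 and 198 in Control and 819, 1497 and 2925 with DCC-2036, a log2 fold change of 2.83 (adjusted p = 0.0022). ATF4, of the stress response, gave 0.78 (0.0032), and FOXO3, an activator of BCL2L11 restrained by AKT, gave 0.72 (0.0029). E2F1 fell by 1.47 on the log2 scale (0.0016). Each of the 3 upward calls was lost without Control replicate 2 or 3, those of ATF4 and FOXO3 also without DCC-2036 replicate 2, that of ATF4 without Control replicate 1 and that of FOXO3 with equal totals, and the highest adjusted p in those fits were 0.0112 for JUN, 0.0156 for ATF4 and 0.0163 for FOXO3.

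Promoter sequence is shown for BCL2L11, the member with the highest log2 fold change, which was not called for its leading transcript, and for the effectors BAK1 and BAX, which fell. RefSeq start sites (GRCh38.p14) gave 13 windows of 250 bases before a start for 8 of the 10 members. They were searched on both strands for GGGCGG (the GC box of SP factors), GTAAACA (the FOXO core), CACGTG (the E-box), TGACGTCA (the CRE) and TGATGCAA (a C/EBP-ATF composite). These were present in 42.6%, 2.98%, 6.32%, 1.63% and 0.775% of 34943 windows of the same length, and the letters found did not overlap each other in the windows shown. Matches are in capitals, and each window is printed 5′ to 3′ on the strand of its gene, at chr2:111120664-111120913 for BCL2L11, chr6:33580277-33580526 for BAK1 and chr19:48954625-48954874 for BAX.
BCL2L11 promoter: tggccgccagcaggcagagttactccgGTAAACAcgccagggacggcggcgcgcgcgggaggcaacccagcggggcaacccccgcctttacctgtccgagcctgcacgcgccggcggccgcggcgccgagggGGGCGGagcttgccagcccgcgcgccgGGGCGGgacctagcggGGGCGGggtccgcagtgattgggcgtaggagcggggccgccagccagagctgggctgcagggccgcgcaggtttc
BAK1 promoter: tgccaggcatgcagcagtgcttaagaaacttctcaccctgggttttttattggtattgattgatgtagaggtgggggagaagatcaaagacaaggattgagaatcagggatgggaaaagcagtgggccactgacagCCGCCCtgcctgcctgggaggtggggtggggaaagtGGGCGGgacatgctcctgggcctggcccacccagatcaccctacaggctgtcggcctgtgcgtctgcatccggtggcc
BAX promoter: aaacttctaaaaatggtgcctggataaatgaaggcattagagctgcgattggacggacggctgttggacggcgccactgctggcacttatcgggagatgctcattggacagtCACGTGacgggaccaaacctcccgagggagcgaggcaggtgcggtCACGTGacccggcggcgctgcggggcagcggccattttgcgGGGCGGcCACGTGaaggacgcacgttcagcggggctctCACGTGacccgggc

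The BCL2L11 window held 3 GC boxes and 1 FOXO core, the BAX window held 1 GC box and 4 E-boxes, and the BAK1 window held 2 GC boxes. The window of BCL2, the called member with the lowest log2 fold change, held 0 matches to any of the motifs and is not printed. Over the 13 windows of the members, 8 had a GC box, 1 the FOXO core, 4 an E-box and 0 the CRE or the composite. Of these windows 5 lie at BID, each overlapping at least 1 other, and hold 4 of the 8 with a GC box and 2 of the 4 with an E-box, so the counts are not over separate promoters. Their median GC content was 68.8%, beside 58% over all windows. A match of letters is a description of the window, and binding was not measured.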

How the data were processed

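RNA was extracted with Trizol and libraries were made with the Nextera XT kit, per the labels. The authors deposited 1 table of a depth-adjusted signal per RefSeq transcript and library, in which values are not whole. The aligner, genome build and counting method are not given in the sources used here. The table's remaining columns, deposited by the authors, hold their own comparison as log2 fold changes, p-values and q-values and were not used. No column of values per sample lacked a sample. Libraries were grouped by their titles.

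Per symbol the transcript with the highest mean was kept, genes had to reach 10 in 3 or more libraries, and log2(value + 1) was tested with limma 3.58.1 in R 4.3.3, two-sided, without covariates, adjusted over all 12725 genes. Transcripts were tested as 32323 separate rows. Count tests do not apply to these values. Exact permutation tests used scipy 1.17.1 in Python 3.11.15. Exons came from GENCODE 29 through RefSeq accessions, which gave a model for each of the 53 transcripts. Some models were given to several transcripts, so a matched model need not be a transcript's own structure. Per-kilobase values use the length of the matched model. The fit was tested on simulated data. All 10 members are described, and from other lists values are given for called genes, at most the 6 with the largest change per list, and for BAD, BMF, BOK and BCL2L2 whatever their result. Some uncalled or untested genes are named without values. Some genes of the list of effectors downstream of mitochondria are not reported here. Members and lists were chosen with earlier results of these data known. Alternatives were 3 scalings, 2 filters, a pseudocount of 0.1, a limit of 0.05, a replicate block, limma with a trend, other uses of transcripts, and each library left out.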

Additional observations from a re-analysis of the deposited data

How the results depend on the processing

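Of the members, 3 were called lower and 0 higher. Without the filter on low values 1 was called lower (BAK1), which tests more genes. With a limit of 0.05, or with limma's trend, 1 member was called higher (BCL2L11). Leaving out each library in turn gave 0 to 4 members lower and 0 to 1 higher, and the call of at least 1 of BCL2, BAX and BAK1 was lost without Control replicate 1, 2 or 3 or DCC-2036 replicate 2. Over all genes the same refits gave 928 to 2675 higher and 1514 to 3507 lower. The signs of small differences turned in BBC3 with equal totals (-0.0417) and in BID with upper quartile scaling (0.00054) and when libraries were left out (-0.251 to 0.0846, above 0 without DCC-2036 replicate 3). Replicate numbers did not pair the libraries (correlations of deviations 0.081, -0.0352 and -0.00329), and a replicate block gave 2 members lower and 0 higher (BAK1 at an adjusted p of 0.0131, limma). The block also ended the calls of BAD (0.0153), BMF (0.0103), VDAC1 (0.0119), BTRC (0.0186), USP9X (0.0244), ATF4 (0.0109) and FOXO3 (0.0153), with 1202 genes higher and 1909 lower in all. Every transcript as a row gave 6379 higher and 7250 lower. Scaling moved the median of all genes from -0.09 to between -0.29 and 0.02. The cause of these shifts was not tested. As read counts are unknown, the precision of low values such as those of BCL2 and BMF is known from the spread of 3 libraries only.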
